A study of Mus musculus with 20 samples.

Results

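The genes described here are 8 members of the pathway by which cells make cholesterol under the control of the sterol regulatory element binding proteins (SREBPs). They are the transcription factor genes Srebf1 and Srebf2, the gene of the retention protein Insig1, and the genes of the enzymes Hmgcs1, Idi1, Fdft1, Sqle and Dhcr7. The genes were chosen by name, and every probe whose RefSeq accession belongs to one of the 8 symbols was taken. The rule uses no measured value, but the genes were picked with earlier results of these data known. This gave 10 of the 55681 probes on the array, with 2 probes each for Srebf2 and Fdft1 and 1 for each of the other genes. The array names 20972 genes in all.

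SREBPs are made as precursors in the membrane of the endoplasmic reticulum. When the membrane is rich in sterols, Insig proteins hold them there. When sterols are scarce, the escort protein Scap carries them to the Golgi, where proteases release a fragment that enters the nucleus and binds sterol regulatory elements in the promoters of its target genes. SREBP2, the product of Srebf2, mainly drives cholesterol synthesis and uptake, and SREBP1 mainly drives fatty acid synthesis. The blood-brain barrier keeps lipoproteins of the blood out of the brain, so that brain cholesterol is made in place, by astrocytes, neurons and, for myelin, oligodendrocytes.

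The study asked how the HIV-1 protein Tat and methamphetamine (Meth) together alter transcription in the mouse brain. All animals were male mice on a C57BL/6J background that carried a tetracycline-dependent regulator under the GFAP promoter, which is active in astrocytes, and all received doxycycline at 100 mg/kg daily for 7 days. Tat+ mice also carried the TRE-driven Tat transgene and made Tat on doxycycline, and Tat- mice lacked that transgene. Each genotype was split into 5 mice given 0.9% saline (Tat-/Sal and Tat+/Sal) and 5 given Meth at 2 mg/kg for 7 days (Tat-/Meth and Tat+/Meth). By the study's methods every mouse, saline groups included, was then left untreated for 7 days and challenged once with Meth (1 mg/kg), and at an age of 3 to 5 months gave its caudate putamen 1 h later. GEO's sample labels differ and describe a left brain hemisphere taken 24 h after the last injection at 6 to 7 weeks of age.

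RNA of each mouse was hybridised to a 1-colour Agilent mouse array. Values below are log2 signals, scaled so that the 75th percentile of every array is the same, and 9 of the 10 probes reached the limit for testing, a mean of at least 6 log2 units in at least 1 group, as did 31516 probes in all. Differences were tested with limma, a method that shares the estimate of the spread across probes, in a single fit of the 20 arrays, with p-values adjusted over all probes tested. The arrays came on 3 slides, and slide 1 held the 5 Tat-/Meth arrays and no other, so that for every difference involving Tat-/Meth slide and group cannot be told apart. The bright corner control spots read 14.67 to 15.06 log2 units on slide 1 and 16.79 to 17.44 on the others, and their part in the differences was not tested. Slide 2 held Tat-/Sal with 3 Tat+/Meth arrays, and slide 3 held Tat+/Sal with the other 2. Tat+/Sal vs. Tat-/Sal is therefore also slide 3 against slide 2, joined only by the Tat+/Meth arrays. Of the markers of striatal neurons, Ppp1r1b (DARPP-32) and Drd1 (a dopamine receptor) were well above background on all 5 arrays of each group, and so were the cortical markers Neurod2 and Tbr1. The cortical markers Slc17a7 and Neurod6 were well above background on 4 to 5 and on 2 to 4 of the 5. In bulk tissue, fewer cells of a type and less RNA per cell cannot be told apart.

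RefSeq promoter windows on GRCm38.p6 were at hand for 6 of the 8 genes, and Sqle and Fdft1 were not among them. They cover the 250 bases before each transcription start, and 4 of them are shown. Hmgcs1, Srebf2 and Insig1 were chosen because they alone hold an exact match to a searched form of the sterol regulatory element. Elements with other letters were not searched for, so a window without a match may still hold one. Idi1 was chosen because it is, with Hmgcs1, an enzyme gene past the threshold below that has a single window. That window holds CCAAT boxes, the site of the common SREBP partner NF-Y. Capitals mark TCACNCCAC, its shorter forms TCACNCCA and CACNCCAC, and CCAAT, on either strand.
Hmgcs1, chr13:119690101-119690350, plus strand: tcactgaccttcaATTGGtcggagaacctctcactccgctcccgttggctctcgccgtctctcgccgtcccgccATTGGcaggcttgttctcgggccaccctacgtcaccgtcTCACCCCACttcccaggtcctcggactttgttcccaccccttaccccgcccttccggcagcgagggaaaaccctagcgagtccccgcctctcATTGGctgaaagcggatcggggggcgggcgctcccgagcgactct
Srebf2, chr15:82147019-82147268, plus strand: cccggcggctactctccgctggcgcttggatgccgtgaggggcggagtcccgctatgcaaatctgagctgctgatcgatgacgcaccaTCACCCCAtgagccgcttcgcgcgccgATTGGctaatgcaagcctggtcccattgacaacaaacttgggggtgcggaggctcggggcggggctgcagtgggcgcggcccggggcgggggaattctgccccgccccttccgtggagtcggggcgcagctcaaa
Insig1, chr5:28071162-28071411, plus strand: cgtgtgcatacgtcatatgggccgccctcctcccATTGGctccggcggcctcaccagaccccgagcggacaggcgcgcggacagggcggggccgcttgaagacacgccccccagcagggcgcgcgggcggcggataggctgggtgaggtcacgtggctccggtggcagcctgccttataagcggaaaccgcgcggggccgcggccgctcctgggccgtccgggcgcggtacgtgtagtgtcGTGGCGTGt
Idi1, chr13:8885356-8885605, plus strand: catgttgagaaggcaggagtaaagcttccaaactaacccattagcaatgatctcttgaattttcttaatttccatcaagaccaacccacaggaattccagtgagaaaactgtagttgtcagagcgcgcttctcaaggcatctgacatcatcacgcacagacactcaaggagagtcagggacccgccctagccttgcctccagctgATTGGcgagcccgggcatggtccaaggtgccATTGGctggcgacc

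The longest form, TCACNCCAC, was found in the Hmgcs1 window alone among the 10 windows of the 6 genes, from base -137 to -129 counted from the start, and in 1.05% of all 32851 windows of that length. The form that lacks the last base, TCACNCCA, which was searched after the windows had been seen and is part of the longest form, lay from -162 to -155 in Srebf2 and stood in 3.67% of all windows. CACNCCAC, which the longest form contains, also lay on the minus strand of Insig1, from -9 to -2, and in 5.29% of all windows. CCAAT was present in 7 of the 10 windows, with 3 copies in Hmgcs1 and 2 each in Idi1 and 1 Dhcr7 window, and in 33.85% of all windows. The E-box CACGTG was found in Insig1 and in 1 of the 3 Dhcr7 windows, against 6.02% of all windows, and the GC box GGGCGG in 8 of the 10 windows, against 32.74%. These matches are letters in the sequence, not measured binding.

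Srebf1 lies at chr11:60199084-60224186 (GRCm38.p6). Its signal rose by 0.47 log2 units in Tat-/Meth vs. Tat-/Sal, or 1.38-fold (95% confidence interval 0.23 to 0.70, adjusted p = 0.00211, limma). The 5 Tat-/Sal arrays read 8.40, 8.36, 8.47, 8.25 and 8.58 log2 units, and the 5 Tat-/Meth arrays read 8.98, 8.83, 8.74, 8.85 and 8.98. Every Tat-/Meth array was above every Tat-/Sal array. The Tat+/Sal arrays read 8.39, 8.77, 8.91, 8.62 and 8.72, and the Tat+/Meth arrays 8.34, 8.76, 8.74, 8.55 and 9.03. Both Tat+ groups spread over the range of both Tat- groups, with means of 8.68 ± 0.19 and 8.68 ± 0.26 (SD, n = 5), and the difference between them was 0.00 (interval -0.24 to 0.23, adjusted p = 0.999). Tat+/Sal lay 0.27 above Tat-/Sal (adjusted p = 0.231) and Tat+/Meth 0.20 below Tat-/Meth (adjusted p = 0.149), neither past the threshold.

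Srebf2, which encodes the factor with the closer tie to cholesterol synthesis, lies at chr15:82147269-82205379 and was read by 2 probes that did not give the same answer. Both carry the same RefSeq accession, and where in the transcript each one lies was not analysed here. On the brighter probe (A_51_P377508) Tat-/Sal read 9.16, 9.44, 9.32, 9.21 and 9.59 log2 units and Tat-/Meth read 9.64, 9.29, 9.34, 9.37 and 9.63. These ranges overlapped, and the difference of 0.11 was not past the threshold (interval -0.10 to 0.32, adjusted p = 0.369). On the second probe (A_55_P2000487) Tat-/Sal read 8.93, 9.05, 9.05, 8.85 and 9.17, and Tat-/Meth read 8.08, 8.40, 8.09, 7.96 and 8.10. The second probe fell by 0.89 log2 units, or 1.85-fold (interval -1.08 to -0.69, adjusted p = 3.62e-07), with no overlap of the arrays.

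The Tat+ groups stood with Tat-/Sal on this second Srebf2 probe. Tat+/Sal read 9.03, 9.25, 8.99, 9.24 and 9.24 and Tat+/Meth 9.03, 9.03, 8.76, 8.94 and 9.21, so that all 15 arrays of the other groups were above the highest Tat-/Meth array. Among all probes tested, 12.4% lay below the 15 other arrays on all Tat-/Meth arrays in the same way. Tat+/Meth was 0.87 above Tat-/Meth on the second probe (interval 0.67 to 1.07, adjusted p = 4.39e-07) and 0.07 below it on the brighter one (adjusted p = 0.602). The brighter probe read 9.54, 9.67, 9.58, 9.63 and 9.74 in Tat+/Sal and 9.12, 9.52, 9.44, 9.28 and 9.58 in Tat+/Meth, a difference of -0.25 (adjusted p = 0.365). The change in log2 ratio between both probes makes the disagreement plain: the mean of the brighter less the second was 1.33 ± 0.27 (SD, n = 5) in Tat-/Meth, against 0.33 ± 0.08 for Tat-/Sal, 0.49 ± 0.08 for Tat+/Sal and 0.39 ± 0.22 for Tat+/Meth. Srebf2 is not alone in this, since of 3898 genes with more than 1 probe tested, 9.11% had probes whose differences in Tat-/Meth vs. Tat-/Sal lay at least 1 log2 unit apart. No direction for Srebf2 mRNA in Tat-/Meth is therefore given.

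Insig1, at chr5:28071412-28078662, encodes the protein that holds the SREBP and Scap complex in the endoplasmic reticulum and is itself a target of SREBPs. Tat-/Sal read 7.55, 7.83, 8.05, 7.65 and 8.16 log2 units and Tat-/Meth read 8.28, 8.02, 8.14, 7.95 and 8.48. The groups overlapped, and the difference of 0.33 was not past the threshold (interval -0.05 to 0.71, adjusted p = 0.136), though it was with quantile normalization (0.42, adjusted p = 0.0497) and normexp background correction (0.39, adjusted p = 0.0372). Tat+/Sal was the most scattered group, at 8.15, 7.99, 8.47, 7.27 and 7.64, and Tat+/Meth read 7.76, 7.62, 8.0, 7.60 and 7.79. Against Tat-/Meth, Tat+/Meth differed by -0.42 (interval -0.80 to -0.04), which just missed the threshold (adjusted p = 0.0562). It passed with quantile normalization (-0.54, adjusted p = 0.0144), median scaling (-0.58, adjusted p = 0.0216) and normexp (-0.43, adjusted p = 0.0249), and in other fits given further below. With an SD between arrays of the same group and slide of 0.31, against a median of 0.15 over all genes, Insig1 was the noisiest of the 8 genes by brightest probe.

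**Figure D1:**
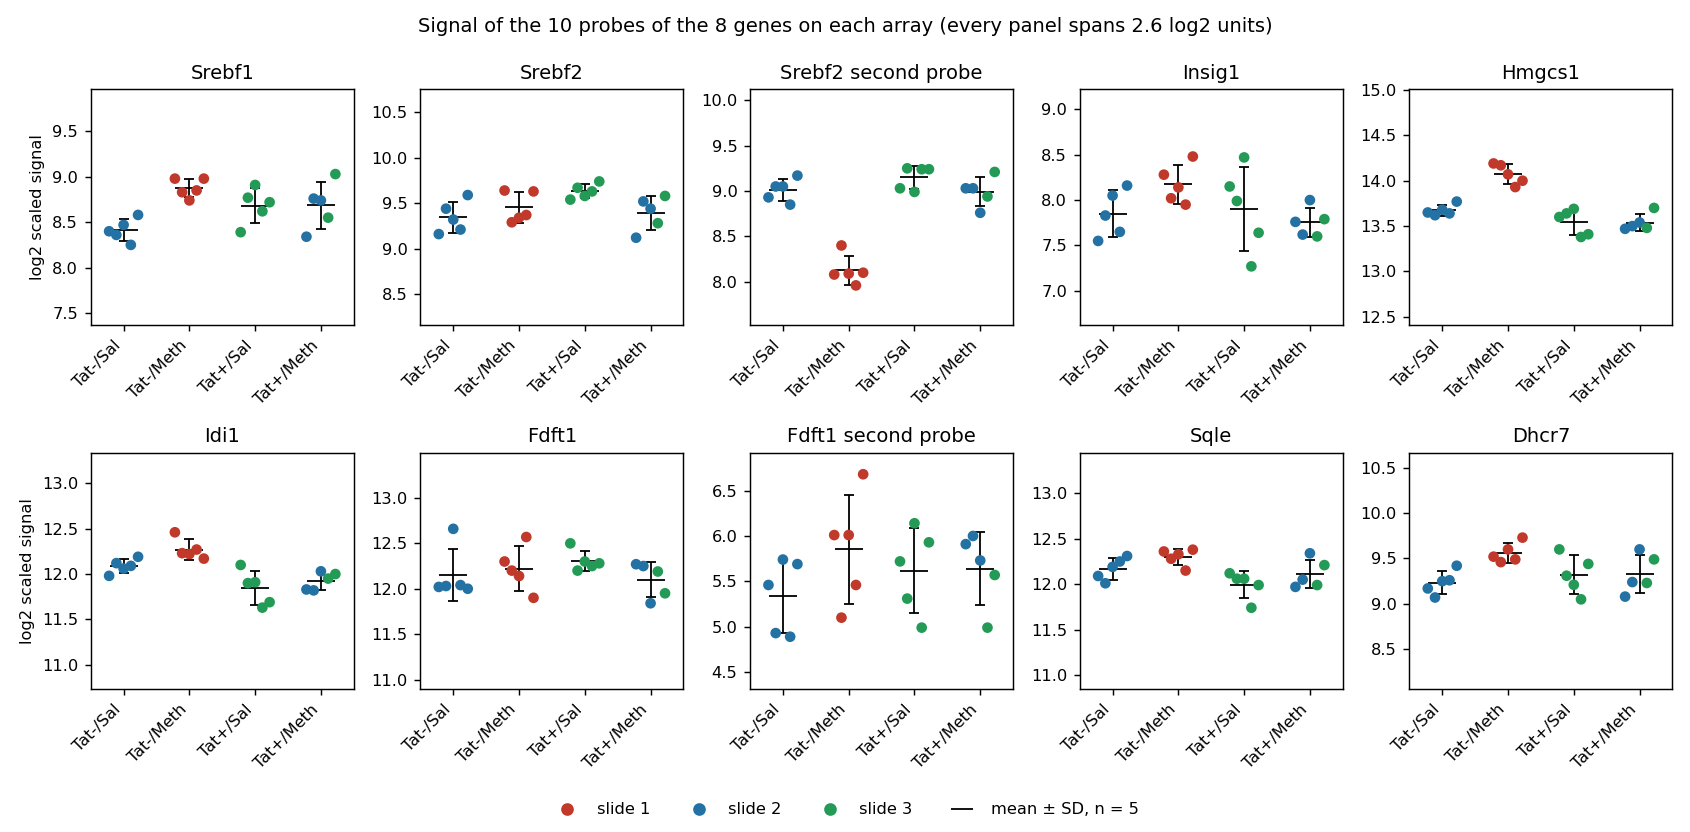
Log2 scaled signal (vertical axis, the same span in every panel) of the 10 probes on each array of the 4 groups, coloured by slide, with the mean and SD of 5 arrays. The red Tat-/Meth points (slide 1) stand above all other points for Hmgcs1 and below all others for the second Srebf2 probe, while those of Fdft1 and the brighter Srebf2 probe lie among the rest.

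Hmgcs1, at chr13:119690351-119708260, encodes the cytosolic synthase that makes HMG-CoA, an early intermediate of the mevalonate pathway. It rose by 0.40 log2 units in Tat-/Meth vs. Tat-/Sal, or 1.32-fold (interval 0.25 to 0.55, adjusted p = 0.000159), while Tat+/Meth lay 0.53 below Tat-/Meth, or 1.45-fold (interval -0.69 to -0.38, adjusted p = 6.28e-06). Tat-/Sal read 13.65, 13.62, 13.68, 13.64 and 13.77 log2 units, and Tat-/Meth read 14.19, 14.17, 14.07, 13.93 and 14 (mean 14.07 ± 0.11, SD, n = 5). Tat+/Sal read 13.60, 13.64, 13.69, 13.38 and 13.41, and Tat+/Meth read 13.47, 13.50, 13.54, 13.48 and 13.70. Each Tat-/Meth array was above all 15 others, as was so for 12.6% of all probes tested. Without Tat-/Meth the order was Tat-/Sal at 13.67 ± 0.06, then both Tat+ groups at 13.54, with SDs of 0.14 and 0.09 (n = 5), and these neighbours did not differ past the threshold (adjusted p = 0.38 for Tat+/Sal and 0.78 for Tat+/Meth, each against Tat-/Sal).

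Idi1, at chr13:8885606-8892396, encodes the isomerase that interconverts the isoprene units from which sterols are built. Tat-/Sal read 11.98, 12.12, 12.06, 12.09 and 12.19 log2 units, and Tat-/Meth read 12.46, 12.23, 12.22, 12.27 and 12.17. These groups overlapped at 1 array each, and the difference of 0.18 was not past the threshold (interval 0.01 to 0.35, adjusted p = 0.073). It was past it with slide as a random block (adjusted p = 0.0271), in the methods' t-test (0.0376) and with the 2 groups alone (0.0467). The random block had a slide correlation of -0.0586, which narrows the error, and slide and group cannot be told apart with it either. Tat+/Sal read 12.10, 11.90, 11.91, 11.63 and 11.69, and Tat+/Meth read 11.83, 11.82, 12.03, 11.95 and 12.00. Idi1 was 0.34 lower in Tat+/Meth vs. Tat-/Meth, or 1.27-fold, with no overlap of the arrays (interval -0.52 to -0.17, adjusted p = 0.00171). The difference of Tat+/Sal from Tat-/Sal was -0.24 (interval -0.41 to -0.07), which is not past the threshold over all probes (adjusted p = 0.149).

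Fdft1, at chr14:63145150-63181687, encodes squalene synthase, which commits isoprenoids to sterols, and it did not pass in any comparison. On its brighter probe Tat-/Sal ran from 12.00 to 12.66 log2 units (median 12.03), Tat-/Meth from 11.90 to 12.57 (median 12.20), Tat+/Sal from 12.20 to 12.50 (median 12.28) and Tat+/Meth from 11.84 to 12.27 (median 12.19). The intervals of the differences reached from -0.49 to 0.44 over the 5 comparisons of groups, and no adjusted p was under 0.46. The second probe was dim, with group means of 5.34 to 5.85, and was not tested. It was well above background on 3 arrays of each saline group, 4 of Tat-/Meth and 5 of Tat+/Meth.

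Sqle, at chr15:59315092-59331193, encodes squalene epoxidase, which adds oxygen to squalene before the sterol rings are closed. Its arrays ran from 12.01 to 12.31 log2 units for Tat-/Sal, from 12.15 to 12.38 for Tat-/Meth, from 11.74 to 12.12 for Tat+/Sal and from 11.97 to 12.34 for Tat+/Meth. Neighbouring groups overlapped, and the differences were 0.13 in Tat-/Meth vs. Tat-/Sal (interval -0.05 to 0.31, adjusted p = 0.221) and -0.19 in Tat+/Meth vs. Tat-/Meth (interval -0.37 to 0.00, adjusted p = 0.0782).

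Dhcr7, at chr7:143823167-143848410, encodes a reductase that acts at the end of the pathway, where it makes cholesterol from its direct precursor. Tat-/Sal read 9.17, 9.07, 9.25, 9.26 and 9.42 log2 units, and Tat-/Meth read 9.52, 9.46, 9.60, 9.49 and 9.73, so that the groups did not overlap. Dhcr7 rose by 0.33 log2 units, or 1.25-fold (interval 0.10 to 0.55, adjusted p = 0.0178). Tat+/Sal read 9.60, 9.31, 9.21, 9.05 and 9.44 and Tat+/Meth 9.08, 9.24, 9.60, 9.23 and 9.49, and both overlapped with both Tat- groups. The difference of Tat+/Meth from Tat-/Meth was -0.23 (adjusted p = 0.0765).

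Taken by comparison, the effect of Meth in mice without Tat was asked in Tat-/Meth vs. Tat-/Sal. Srebf1, Hmgcs1 and Dhcr7 rose there, the second Srebf2 probe fell, and the other 5 probes did not pass, 4 of 9 probes in all at an adjusted p under 0.05, where 50.3% of all probes tested did so (28.1% higher and 22.2% lower). Read by the brightest probe of each gene, 3 of the 8 genes were higher and none lower, against 5178 higher and 2275 lower of 15103 genes. The 8 differences were above 0 with a median of 0.25, against 10246 of 15103 genes above 0, a median of 0.14 and quartiles of -0.08 and 0.32. By its second probe Srebf2 would be below 0, leaving 7 of 8. The place of Srebf1 and Hmgcs1 in that distribution was not extreme, since 11% and 16.1% of genes lay at or above them. No member passed 2-fold, which 11.6% of all probes did. The count of members was thus close to the share of all probes. The 4 members with arrays that did not overlap (Srebf1, Hmgcs1 and Dhcr7 higher, the second Srebf2 probe lower) stand beside 36.6% of all probes (20.3% higher and 16.2% lower).

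The effect of Tat in mice given Meth was asked in Tat+/Meth vs. Tat-/Meth, which shares the Tat-/Meth arrays with the comparison above. Hmgcs1 and Idi1 were lower in Tat+/Meth, the second Srebf2 probe was higher, and the other 6 probes tested did not pass, against 53.5% of all probes (23.2% higher and 30.3% lower). The median over the 8 genes was -0.21, against -0.15 over all genes, and 8.69% of genes lay at or below Hmgcs1. The arrays of these 3 called probes did not overlap between the groups, as was so for 37.2% of all probes (16.1% higher and 21.1% lower).

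Whether Meth acted differently with and without Tat was asked by the interaction term, the Meth difference in Tat+ less that in Tat-, which 37% of all probes passed (19% higher and 18.1% lower). Of the members, 3 of 9 probes did so: Srebf1 at -0.47 (interval -0.80 to -0.13, adjusted p = 0.0271), Hmgcs1 at -0.41 (interval -0.62 to -0.19, adjusted p = 0.00419) and the second Srebf2 probe at 0.73 (interval 0.46 to 1.01, adjusted p = 0.000274). With arrays scaled to the median no member passed, at adjusted p-values of 0.0542, 0.0706 and 0.154, and Srebf1 also missed with no filter on dim probes (0.0578) and without Tat-/Sal replicate 4 (0.0518), Tat+/Meth replicate 1 or Tat+/Sal replicate 3 (0.05 each).

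In the 3 comparisons that leave out Tat-/Meth and slide 1, no member probe passed in the fit without a slide block. Of these, Tat+/Sal vs. Tat-/Sal also sets slide 3 against slide 2, joined only by the Tat+/Meth arrays that lie on both. Without repeated Meth, Tat+/Sal vs. Tat-/Sal had 0.708% of all probes called at an adjusted p under 0.05 (0.355% higher and 0.352% lower). These 112 and 111 probes became 1 and 0 without Tat-/Sal replicate 1, 2 or 4 or Tat+/Sal replicate 4 or 5. They became 0 and 0 with slide as a fixed block, and 1355 and 1636 with slide as a random block. The closest members there were Idi1 at -0.24 (adjusted p = 0.149) and the brighter Srebf2 probe at 0.29 (interval 0.08 to 0.50, adjusted p = 0.152). With slide as a random block both passed, at -0.23 (adjusted p = 0.0414) and 0.30 (adjusted p = 0.0293). The slide correlation in that block was -0.0586. A value below 0 narrows the error of a difference between groups that each lie on a single slide, and does not allow for slide. In the fit without the block 3 members passed at an unadjusted p under 0.05 (Srebf1, Srebf2 and Idi1), where 16.6% of all probes did. Tat+/Meth vs. Tat+/Sal had no probe called at an adjusted p under 0.05 in limma, while 11.5% passed unadjusted, among them the brighter Srebf2 probe alone of the members. Tat+/Meth vs. Tat-/Sal had 0.00317% called, and Srebf1 was the single member that passed unadjusted, against 6.31% of probes. Within slide 2, which holds Tat-/Sal and 3 Tat+/Meth arrays, the member differences lay between -0.20 and 0.20, and within slide 3, with 2 Tat+/Meth and 5 Tat+/Sal arrays, between -0.24 and 0.13. No member probe passed within either slide.

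**Figure D2:**
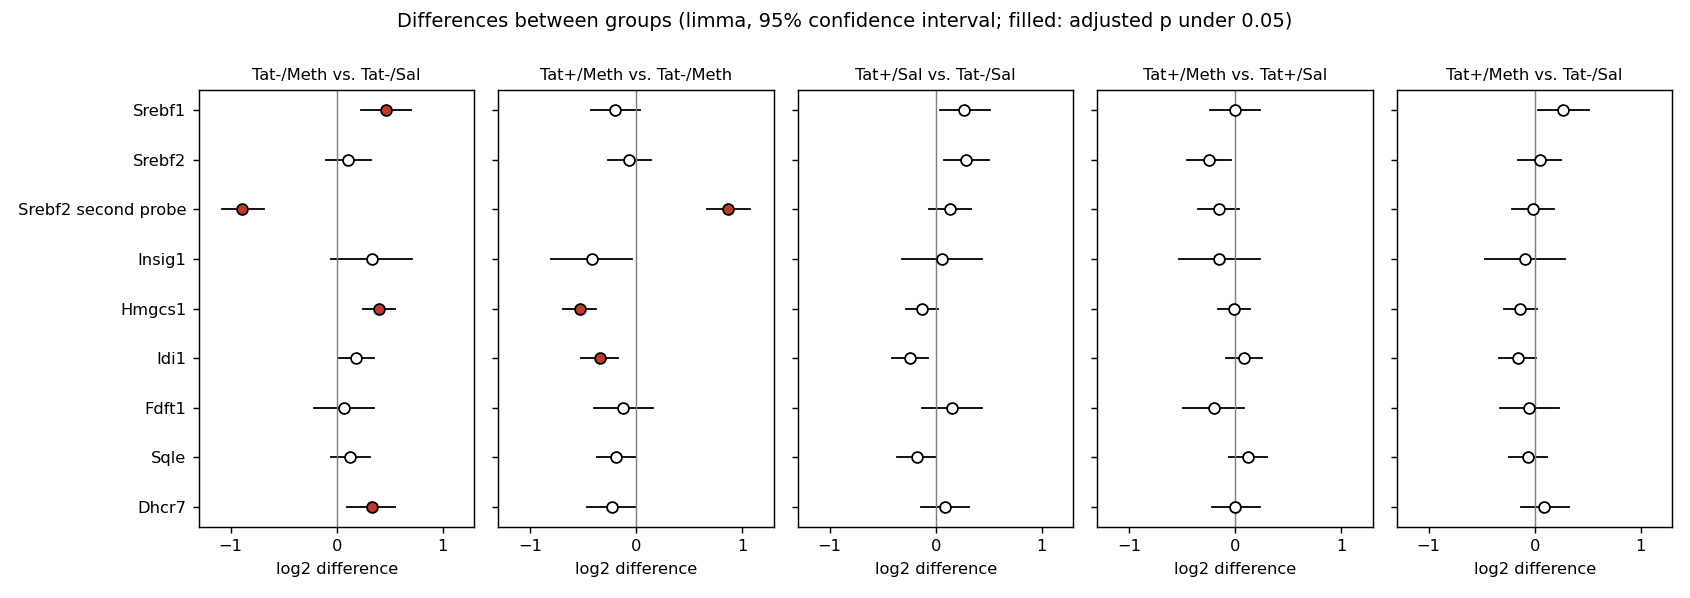
Log2 differences (horizontal axis) of the 9 probes tested in the 5 comparisons, as limma estimates with 95% confidence intervals, filled where the adjusted p is under 0.05. Filled points stand in the first 2 panels alone, which involve the Tat-/Meth arrays, and the second Srebf2 probe lies at -0.89 and 0.87 there, opposite to the other filled points.

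The genes around the 8 members, grouped by role, showed the same split by comparison. Of 15 other enzymes of cholesterol synthesis, 5 rose and none fell in Tat-/Meth vs. Tat-/Sal, with a median of 0.11. Of all 15103 genes tested, 5178 were higher and 2275 lower, with a median of 0.14. The 5 enzymes were Lss (lanosterol synthase) at 0.46, Acat2 (acetoacetyl-CoA thiolase) at 0.35, Fdps (farnesyl diphosphate synthase) at 0.31, Ebp (sterol isomerase) at 0.30 and Sc5d (sterol desaturase) at 0.28 log2 units, with adjusted p-values from 0.000148 to 0.00777. Of the same 15 enzymes, 6 were lower and none higher in Tat+/Meth vs. Tat-/Meth, led by Lss at -0.56, Fdps at -0.45 and Sc5d at -0.42. Of all genes, 5690 were lower there and 2373 higher.

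Among 10 genes that carry, cut or degrade SREBPs and their partners, 2 rose and 2 fell in Tat-/Meth vs. Tat-/Sal. Of all 15103 genes tested, 5178 were higher and 2275 lower. Erlin2, an endoplasmic reticulum scaffold for protein degradation, rose by 0.48 and Ube2g2, a ubiquitin-conjugating enzyme, by 0.17. Fbxw7, a ubiquitin ligase subunit that marks nuclear SREBPs for destruction, fell by 0.46 and Rnf139, a ligase of the endoplasmic reticulum, by 0.26. Scap differed by 0.04 (adjusted p = 0.597), Mbtps1, a Golgi protease that cuts SREBPs, by -0.11 (adjusted p = 0.372), and Insig2 by 0.05 (adjusted p = 0.532). Of 4 tested targets in sterol uptake and transfer none passed.

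Fatty acid genes driven by SREBP1 gave 4 of 11 that rose and none that fell in Tat-/Meth vs. Tat-/Sal, with a median of 0.18. The desaturase Fads1 rose by 0.58, malic enzyme Me1 by 0.50, fatty acid synthase Fasn by 0.32 and acetyl-CoA carboxylase Acaca by 0.18, and 5 of 11 were lower in Tat+/Meth vs. Tat-/Meth, led by Me1 at -0.56, Fads1 at -0.55 and Scd1 at -0.49. Of 14 genes of cholesterol turnover and efflux, 4 passed as higher and none as lower. Cyp27a1, a hydroxylase, reached the signal limit in Tat-/Meth alone, the group where it was high (mean 6.37, against 5.57 to 5.84), so that only its values are given (0.54 here and -0.80 in Tat+/Meth vs. Tat-/Meth). Among the 12 genes at the limit in every group 3 rose. They were Soat1, which esterifies cholesterol, at 0.55, the exporter Abca1 at 0.38 and the lysosomal carrier Npc2 at 0.31. Of the same 12, 4 were lower with Tat among mice given Meth, led by Soat1 at -0.65 and Npc2 at -0.39. In the 3 comparisons without Tat-/Meth no gene of these 5 lists passed. These counts stand against 5178 of 15103 genes higher and 2275 lower in Tat-/Meth vs. Tat-/Sal. With Tat among mice given Meth, 5690 genes were lower and 2373 higher. For no list was the share set apart from that of all genes by a test.

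**Figure D3:**
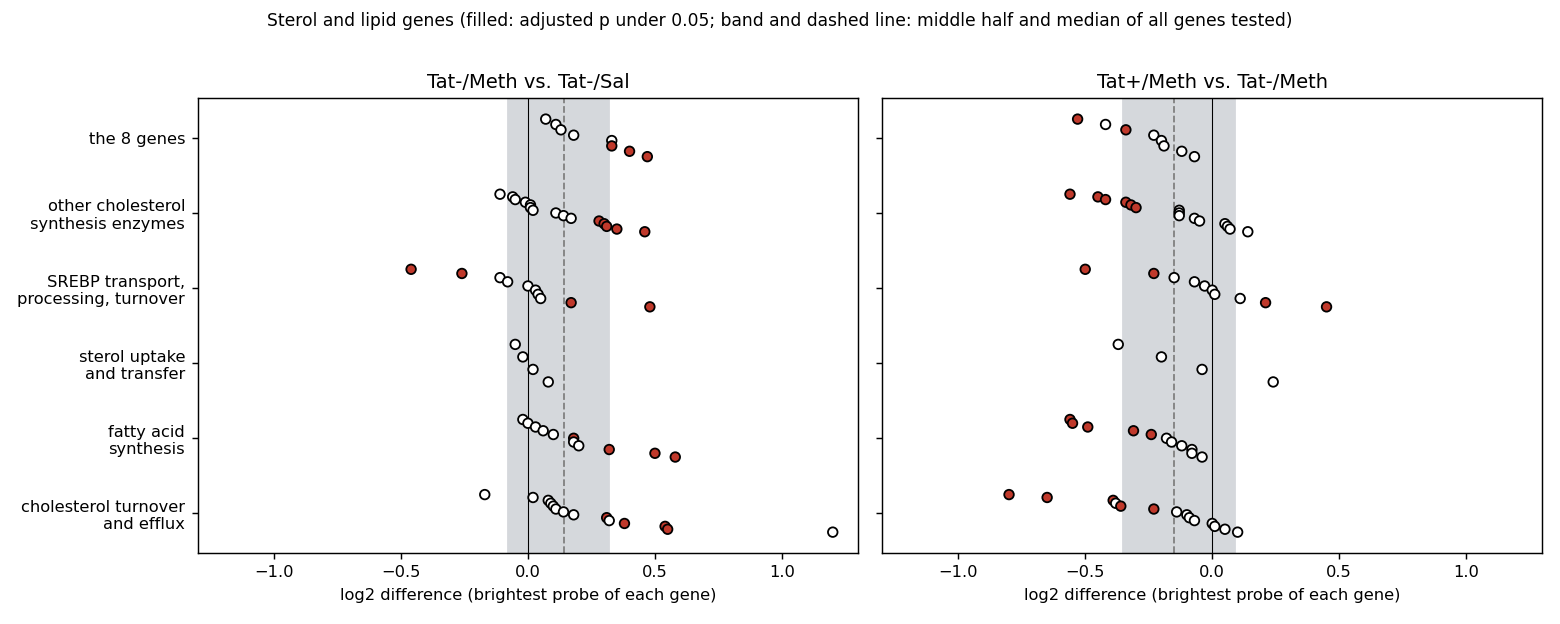
Log2 difference (horizontal axis) of the brightest probe of each gene in the 8 members and the 5 lists around them, filled where the adjusted p is under 0.05, with a grey band from the lower to the upper quartile of all genes tested and a dashed line at their median. The band is itself shifted, with its median at 0.14 on the left (Tat-/Meth vs. Tat-/Sal) and at -0.15 on the right (Tat+/Meth vs. Tat-/Meth), and the open point far to the right is Ch25h at 1.20 (adjusted p = 0.0736). The Tat-/Sal mean of Ch25h, 5.25, lay under the signal limit of 6 log2 units, which the gene reached in the other groups.

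Counts of cell type markers past the threshold are given beside the 5178 of 15103 genes higher and 2275 lower in Tat-/Meth vs. Tat-/Sal. Of 7 astrocyte markers 3 were higher and 1 lower. Their summed signal ran from 18.07 to 18.34 log2 units in Tat-/Meth and from 18.28 to 18.56 in Tat-/Sal, but the brightest marker, Aldoc, fell by 0.36 while the other 6 differences were above 0, with Gja1 (a gap junction protein) at 0.84. Of 8 oligodendrocyte markers 1 was higher, with sums of 18.20 to 18.58 against 18.17 to 18.47. Of 4 endothelium markers 2 were higher, with sums of 14.75 to 15.23 against 14.51 to 14.83. Of 8 striatal neuron markers 2 were lower, the enkephalin gene Penk at -0.30 and Rgs9 at -0.24, with sums of 19.74 to 19.83 against 19.80 to 20.04. Of the 3 cortical markers that reached the signal limit in every group 1 was lower, Neurod2 at -1.22. Its mean was 8.07 in Tat-/Sal, 6.85 in Tat-/Meth, 7.21 in Tat+/Sal and 6.90 in Tat+/Meth. Tbr1 and Slc17a7, also among the 3, had means of 9.15 and 7.26 in Tat-/Sal and 8.47 and 6.42 in Tat-/Meth. Their means were 8.16 and 6.43 in Tat+/Sal and 7.93 and 6.54 in Tat+/Meth. None of the 3 passed the threshold in Tat+/Sal or Tat+/Meth against Tat-/Sal. Neurod6 reached the signal limit in Tat-/Sal alone, the group where it was high, so that only its means are given (6.32, against 5.04 to 5.53). Of 5 microglia markers 1 was higher and 1 lower, and none of 4 choroid plexus or 3 red blood cell markers passed. Against Tat-/Meth, Tat+/Meth had 4 of 7 astrocyte markers lower and 1 higher, 3 of 8 oligodendrocyte and 2 of 4 endothelium markers lower, and 2 of 8 striatal markers higher and 1 lower, beside 5690 genes lower and 2373 higher. There 2 of 5 microglia markers were lower and 1 higher, 1 of 3 red blood cell markers was lower, and no cortical or choroid plexus marker passed. The part of these cells in the differences of the 8 genes was not tested.

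The 8 genes also varied among arrays of the same group. After the mean of each of the 5 sets of arrays that share a group and a slide was subtracted, the 28 pairs of genes had a median Pearson r of 0.38 over the 20 arrays, from -0.33 to 0.86, against a median of 0.03 and quartiles of -0.19 and 0.26 over all pairs of genes tested. All pairs share the same arrays and their quality. An r over 0.5 was reached by 9 of the 28 pairs and by 7.6% of all pairs. The closest pair was Sqle and Dhcr7 (r = 0.86, rho = 0.87, permutation p = 0.0001 and 6e-05, adjusted over the 28 pairs 0.0028 and 0.00168), and r was 0.78 without the 2 arrays farthest from the Sqle median. In all, 6 pairs passed an adjusted p of 0.05 by r and 5 of them also by rho, each in the positive direction. These 5 were Sqle with Dhcr7, Srebf1 with Srebf2 (r = 0.73, rho = 0.71), Insig1 with Sqle (r = 0.72, rho = 0.70), Insig1 with Hmgcs1 (r = 0.67, rho = 0.62) and Hmgcs1 with Sqle (r = 0.67, rho = 0.61). Their adjusted permutation p-values ran from 0.0028 to 0.0404 for r and from 0.00168 to 0.0486 for rho. The shuffles ask whether 2 genes vary independently within the sets, not whether a pair exceeds ordinary pairs of genes. Without the 2 arrays farthest from the median of the first gene, r was 0.68, 0.65, 0.48 and 0.59 for the last 4 pairs in that order. Srebf2 was read by its brighter probe alone here. Its second probe, which gave another answer between the groups, was not set against Srebf1. Fdft1 stood outside, with a median r of -0.28 to the other 7 genes.

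The Tat+/Sal arrays spread most in this respect: the mean over the 5 enzymes was 0.18 log2 units above the group on the array of replicate 1 and 0.19 below it on that of replicate 4, whereas the other groups stayed between -0.09 and 0.10. Tat+/Meth was centred in sets of 3 and 2 arrays, which narrows its range, so it is not set on equal terms with the groups of 5. Without the 5 Tat+/Sal arrays, an alternative chosen after seeing the data, the median r of the 28 pairs was 0.50 and 14 pairs had an r over 0.5, while Insig1 with Hmgcs1 went from 0.67 to 0.37 and Insig1 with Idi1 from 0.64 to 0.43.

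**Figure D4:**
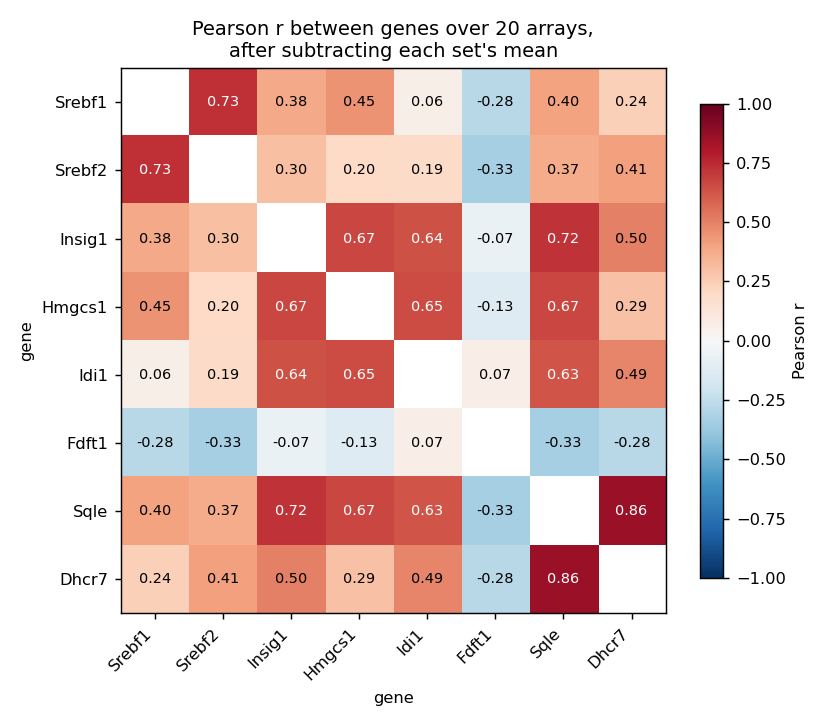
Pearson r (colour scale from -1 to 1) between each pair of the 8 genes over 20 arrays, by the brightest probe and after subtraction of the mean of each set of arrays that share a group and a slide. Sqle with Dhcr7 is the closest pair at 0.86, and the row of Fdft1 is near or below 0.

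Of 15047 other genes, the one whose variation within the sets was most like the mean of the 5 enzymes was Msmo1 (r = 0.92), itself an enzyme of cholesterol synthesis that acts after lanosterol. The next 9 were Stk4 (0.91), Nlgn2 (0.90), Ccdc125 (0.90), Ube2o (0.88), Nipsnap2 (0.88), Slc20a2 (0.87), Dhx57 (0.85), Hnrnpul1 (0.85) and Sult4a1 (0.85), and none of these is in the lists above. Over all genes the median r to this mean was 0.13, and 13.42% had an r over 0.5. Among the 15 other cholesterol enzymes the median was 0.42, with 6 over 0.5, among them Mvd at 0.63. The 5 enzymes are part of the mean, and their own r to it was uneven. It was 0.86 for Sqle and Idi1, 0.75 for Hmgcs1, 0.72 for Dhcr7 and 0.1 for Fdft1. These r values describe 20 arrays, and no test was made of them.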

How the data were processed

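RNA of 20 mice was measured on 1-colour Agilent arrays. The authors deposited spot intensity values written by Agilent Feature Extraction 10.7.3.1, of which the background-subtracted processed signal was used. Spots flagged as outliers were left out (4278), spots of a probe averaged as log2 values, and each array scaled to its 75th percentile. Symbols came from the RefSeq accession of each probe. Groups were those of the sample titles. The depth of an array is unknown, and 5 arrays a group limit the precision.

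Comparisons and the interaction were fitted in limma 3.58.1 (R 4.3.3), with 1 mean per group, over all probes measured on 3 or more arrays per group whose mean reached 6 log2 units in some group, with Benjamini-Hochberg adjustment at 0.05. The fit was tested on simulated data. Correlations between members had two-sided permutation tests with 100000 shuffles within sets. These tests were added to a planned description without p-values. Motifs were searched as exact letters. Python 3.11.15, numpy 2.4.6, pandas 2.3.3 and matplotlib 3.10.9 were used.

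The members and gene lists were chosen with earlier results of these data known. All members and all their probes are named. For the other lists, the rule named, per comparison and direction, the 3 genes past the threshold that moved furthest. Acaca, Ebp, Npc2, Abca1, Sc5d, Scap, Mbtps1, Insig2, Mvd, Ch25h and the cell type markers stand outside it and were named after their values were seen. The 10 genes most like the enzymes follow from their correlation. Values of the series matrix, deposited by the authors, matched the background-subtracted signal plus a constant and served as an alternative, as did other normalizations, filters, blocks and tests and each array left out in turn. Some genes of the lists are not reported here by name but stay in the counts. Replicate numbers were not taken to pair the mice.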

Additional observations from a re-analysis of the deposited data

Results flagged for a closer look

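For 3 probes the effect of Meth differed between mice with and without Tat, by the interaction term of the limma fit, which 37% of all probes tested also passed. The difference (the effect in Tat+ less that in Tat-) was -0.47 log2 units for Srebf1 (adjusted p = 0.0271), -0.41 for Hmgcs1 (adjusted p = 0.00419) and 0.73 for the second Srebf2 probe (adjusted p = 0.000274). The interaction contains the Tat-/Meth arrays, so slide and group cannot be told apart in it. With arrays scaled to the median none of the 3 passed (adjusted p = 0.0542, 0.0706 and 0.154 in that order). The term for Srebf1 had an adjusted p of 0.0518 without Tat-/Sal replicate 4 and of 0.05 without Tat+/Meth replicate 1 or Tat+/Sal replicate 3. On the brighter Srebf2 probe the term was -0.36 (adjusted p = 0.0551).

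Fdft1 in Tat-/Sal had 1 array, replicate 3, that stood apart at 12.66 log2 units, with the other 4 between 12.00 and 12.04. The gap to the nearest array, as a share of the range, was above Dixon's critical value for 5 values. Of 40 sets of 5 values (10 probes in 4 groups) this was the 1 set with such a value, where chance flags about 1 in 20, or 2 of 40.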

How the results depend on the processing

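The 10 called differences of members kept their direction under every alternative that held them. All 10 involve Tat-/Meth, which fills slide 1, so no alternative separates slide from group in them. The fixed slide block was not run for them. The fit with 1 probe per gene leaves out the second Srebf2 probe. The 7 differences between 2 groups also stayed past the threshold (Hmgcs1 in Tat-/Meth vs. Tat-/Sal lay between 0.37 and 0.52 and in Tat+/Meth vs. Tat-/Meth between -0.69 and -0.50). The 3 interactions did not: under median scaling none of the member probes passed (0 against 3), with adjusted p-values of 0.0542 for Srebf1, 0.0706 for Hmgcs1 and 0.154 for the second Srebf2 probe, and Srebf1 also missed with no filter on dim probes (0.0578). Median scaling moved the median of all probes in Tat-/Meth vs. Tat-/Sal from 0.099 to 0.224, and normexp to 0.28, where 23897 probes were higher and 5728 lower, against 8845 and 6995. With its offset normexp let 55669 probes pass the signal limit. On the 31516 probes of the reported fit, an alternative chosen after seeing the data, its median was 0.127, with 10367 higher and 5690 lower. With a random slide block 6 member probes passed in Tat+/Meth vs. Tat-/Meth, 5 in the interaction and 2 in Tat+/Sal vs. Tat-/Sal, and with quantile normalization 5 in the interaction. The slide correlation in the random block was -0.0586, a value below 0 that narrows the error and does not allow for slide. Insig1 passed in Tat+/Meth vs. Tat-/Meth under 9 other fits, with adjusted p-values from 0.012 to 0.049.

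Leaving out each array in turn gave 3 to 6 member probes in Tat+/Meth vs. Tat-/Meth, 2 to 5 in the interaction (5 without Tat+/Sal replicate 4) and 4 to 5 in Tat-/Meth vs. Tat-/Sal. The 5 was reached there without Tat+/Sal replicate 1 (Idi1, adjusted p = 0.0457). Insig1 passed in Tat+/Meth vs. Tat-/Meth without Tat-/Meth replicate 4, Tat+/Meth replicate 3 or Tat+/Sal replicate 3 or 4, Sqle without the first or the second of these, Dhcr7 without the second, and Srebf1 without Tat+/Meth replicate 5. The signs that turned belong to differences near 0. Over the arrays left out, Sqle ran from -0.07 to 0.03 in the interaction, Fdft1 from -0.02 to 0.20 in Tat-/Meth vs. Tat-/Sal and from -0.09 to 0.08 in Tat+/Meth vs. Tat-/Sal, Insig1 from -0.08 to 0.22 in Tat+/Sal vs. Tat-/Sal, and Srebf2 from -0.11 to 0.00 in Tat+/Meth vs. Tat-/Meth and from 0.00 to 0.11 in Tat+/Meth vs. Tat-/Sal, where its second probe ran from -0.07 to 0.04. In Tat+/Meth vs. Tat+/Sal, Srebf1 ran from -0.09 to 0.08, Hmgcs1 from -0.05 to 0.03 and Dhcr7 from -0.06 to 0.07. In the same comparison quantile normalization gave 0.01 for Hmgcs1 and -0.02 for Dhcr7, median scaling -0.03 for Idi1 and -0.10 for Dhcr7, a fixed slide block 0.11 for Srebf1 and 0.05 for Hmgcs1, and the random block 0.00 for Dhcr7. The Sqle interaction was 0.06 with quantile normalization and 0.01 with the series matrix values. The cause of these shifts was not tested.

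Counts over all probes, called at an adjusted p under 0.05 and above 2-fold, moved more. In Tat-/Meth vs. Tat-/Sal 3651 probes became 1831 with normexp on 55669 probes, 1564 with it on 31516, 5614 with no filter, 1034 with 1 probe per gene, 1763 at an adjusted p under 0.01 and 3-fold and 15840 with no fold threshold. In Tat+/Meth vs. Tat-/Meth 3795 became 1773, 1660, 1091 with 1 probe per gene, 1855 at the stricter limits and 16861 with no fold threshold, and in the interaction 3915 became 2342, 1789, 1124, 1879 and 11666 in that order. In Tat+/Sal vs. Tat-/Sal 14 became 7 with quantile normalization, 4 with median scaling, 0 and 3 with normexp, 1 with the series matrix values, 3 with no filter, 3 with 1 probe per gene, 0 with the fixed and 48 with the random slide block, 0 at the stricter limits, 223 with no fold threshold and 0 to 20 with an array left out (0 without Tat-/Sal replicate 1, 2 or 4 or Tat+/Sal replicate 4 or 5). In Tat+/Meth vs. Tat-/Sal the 1 probe became 0 with quantile normalization, the series matrix values, no filter, 1 probe per gene, the fixed slide block, the 2 groups alone, the methods' t-test, the stricter limits and some of the arrays left out. In Tat+/Meth vs. Tat+/Sal 0 became 1 without Tat+/Sal replicate 2.

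With the replicate number as a block, 4 member probes passed in Tat-/Meth vs. Tat-/Sal, 4 in Tat+/Meth vs. Tat-/Meth (Insig1, adjusted p = 0.0282) and 4 in the interaction (Srebf2, adjusted p = 0.0278), and the 1 probe of Tat+/Meth vs. Tat-/Sal became 0. The correlation of same-numbered arrays ran from -0.136 to 0.314 over 30 pairs (median 0.057), and 9 were over 0.1. Arrays with different numbers were not set beside them, so these values cannot show whether the numbers pair the mice.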
